A study of Homo sapiens with 18 samples.

Results

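The accessible chromatin around 6 genes that govern entry into the cell cycle was examined in T47D cells: CCND1 and CCNE1, which encode cyclins D1 and E1, E2F1, and the inhibitor genes CDKN1A, CDKN1B and CDKN1C. Members were the regions of the authors' count table that overlap 1 hg19 window per gene. These windows held 83 of the 132604 regions: 22 at CCND1 (chromosome 11, 69.30 to 69.52 Mb), 9 at CCNE1 (chromosome 19, 30.25 to 30.37 Mb), 18 at E2F1 (chromosome 20, 32.21 to 32.32 Mb), 16 at CDKN1A (chromosome 6, 36.59 to 36.71 Mb), 7 at CDKN1B (chromosome 12, 12.82 to 12.93 Mb) and 11 at CDKN1C (chromosome 11, 2.85 to 2.96 Mb). All 83 passed the filter on low counts. T47D is an established line of human breast carcinoma cells and carries high levels of progesterone receptor. The cells were synchronised by serum starvation in medium with hormone-stripped serum and then given DMSO as the vehicle or R5020 at 0.1 nM or at 10 nM. Cells were collected after 6 h or after 18 h, which makes 6 groups of 3 libraries. R5020 (promegestone) is a synthetic progestin. Omni-ATAC-seq uses a transposase that cuts open DNA and tags it for sequencing, and the deposited value is a count per region. Nothing in the labels ties the 3 libraries of a group to separate cultures. The p-values therefore measure only how far these libraries spread, which may be technical.

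Progress through G1 depends on cyclin-dependent kinases. Cyclin D1 activates CDK4 and CDK6 and cyclin E1 activates CDK2, and these kinases phosphorylate the retinoblastoma protein, which releases E2F transcription factors such as E2F1 to switch on genes for DNA replication. The products of CDKN1A (p21), CDKN1B (p27) and CDKN1C (p57) bind cyclin and kinase complexes and restrain them. Progestins are known in breast cancer cells for a burst of cyclin expression and a round of division followed by arrest in G1 with raised p21 and p27.

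Library totals ranged from 8756311 to 39984217 counts. The 5000 regions with the most counts held 39.1% ± 2.38 (SD, n = 3) of the counts in the vehicle libraries at 6 h and 34.1% ± 0.569 with 10 nM at 6 h. At 18 h they held 38.2% ± 2.02 in vehicle and 33.6% ± 3.44 with 10 nM. Replicate 1 of 10 nM at 18 h had the lowest correlation with the other libraries of its group (mean r = 0.844 over log2 values of all regions), and replicate 3 of 0.1 nM at 18 h was the lowest of its group (0.902). Counts of member regions called at 18 h with 10 nM and between doses are given with and without these 2 libraries. The regions newly called for 10 nM against vehicle at 18 h without them are given by locus. The luminal markers GATA3, FOXA1 and KRT8 each had an open region at the gene start, among the strongest in the vehicle cells, whereas the table listed no region within 1.5 kb of the starts of PTPRC, CD3E or ALB, which mark leukocytes and liver cells.

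The start regions of the 6 genes were open in the vehicle cells and did not pass the report's own test in any comparison. Promoter DNA of these genes, where available, is shown first. RefSeq promoters (GRCh38.p14) matched 4 of the 6 genes, and the 250 bases before each annotated start are given 5′ to 3′ on the gene's strand, with GC boxes (GGGCGG on either strand, overlaps allowed) in capitals.
CCNE1: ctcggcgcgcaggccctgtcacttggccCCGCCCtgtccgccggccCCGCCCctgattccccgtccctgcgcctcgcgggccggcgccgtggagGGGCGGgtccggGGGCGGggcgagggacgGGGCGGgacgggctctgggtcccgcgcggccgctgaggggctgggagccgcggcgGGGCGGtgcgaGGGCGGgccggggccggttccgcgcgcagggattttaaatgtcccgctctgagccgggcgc
E2F1: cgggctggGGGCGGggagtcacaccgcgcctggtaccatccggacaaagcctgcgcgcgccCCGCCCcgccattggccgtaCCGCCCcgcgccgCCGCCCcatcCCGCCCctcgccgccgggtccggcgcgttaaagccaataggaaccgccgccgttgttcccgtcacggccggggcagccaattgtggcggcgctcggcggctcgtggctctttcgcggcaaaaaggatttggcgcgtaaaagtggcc
CDKN1A: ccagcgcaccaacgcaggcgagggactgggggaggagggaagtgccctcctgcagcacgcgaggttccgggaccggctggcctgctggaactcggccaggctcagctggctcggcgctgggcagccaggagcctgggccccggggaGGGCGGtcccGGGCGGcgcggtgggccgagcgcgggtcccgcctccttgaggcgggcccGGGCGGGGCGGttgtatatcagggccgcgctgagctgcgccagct
CDKN1B: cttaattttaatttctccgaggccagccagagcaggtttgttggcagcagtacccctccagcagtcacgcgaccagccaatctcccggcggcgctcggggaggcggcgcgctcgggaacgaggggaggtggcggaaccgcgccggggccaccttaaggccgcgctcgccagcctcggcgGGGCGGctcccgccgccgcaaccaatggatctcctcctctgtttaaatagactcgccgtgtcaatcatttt
These windows were 64.4% (CDKN1B) to 81.2% (CCNE1) G or C. GC boxes occurred 7 times at CCNE1, 5 times at E2F1, 4 times at CDKN1A and 1 time at CDKN1B, and 42.6% of the 35116 RefSeq windows of this length hold at least 1. The palindromic progesterone response element, searched on both strands as the arms GNACA and TGTNC separated by NNN, had 0 matches in the 4 windows and was present in 0.327% of all windows. Its single hexamer, AGAACA, also had 0 matches, against 12.4% of all windows. The E2F site TTTGGCGC was found 1 time, at E2F1, against 0.55% of all windows, and CCAAT boxes were found 3 times at E2F1 and 2 times at CDKN1B, against 32.0% of all windows with at least 1. A match is a run of letters and not evidence of binding. The GRCh38 windows were not placed on the hg19 regions.

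In the vehicle cells the member regions had a median of 5.56 normalised read counts (CPM, scaled by trimmed-mean factors), compared with 2.13 over all 132304 tested regions. The region at or nearest to each gene start had 69.5 CPM at E2F1, 53.2 at CCNE1, 45.4 at CDKN1C, 43.6 at CDKN1A, 22.6 at CDKN1B and 22.3 at CCND1. Per kilobase the order was E2F1 (64.6), CCNE1 (47.2), CDKN1A (41.6), CCND1 (41.3), CDKN1C (22.8) and CDKN1B (16.5). Only at CDKN1A was the start region also the strongest of its window. The strongest region of the E2F1 window lay 46.9 kb upstream of the start (130 CPM), that of CCNE1 lay 32.9 kb downstream (107 CPM), and that of CDKN1C lay 27.0 kb upstream (62.0 CPM). Gene starts were set to the nearest kb from general knowledge of hg19 because no hg19 annotation was used here, so exons, introns and UTRs are not assigned. By RefSeq order the nearest genes are MYEOV and LTO1 beside CCND1, C19orf12 and URI1 beside CCNE1, C20orf144, ACTL10, PXMP4 and ZNF341 beside E2F1, SRSF3, RAB44 and CPNE5 beside CDKN1A, GPR19 and APOLD1 beside CDKN1B, and KCNQ1, SLC67A1 and PHLDA2 beside CDKN1C. Whether these genes start inside the windows was not checked. A region named by its window may thus lie at the start of another gene and is not assigned to the gene of the window.

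In the report's own fit few of the 83 regions were called for R5020 against vehicle, and none of these was a start region. Only 6 of the 83 were start regions, so the absence of a call there says little about position. Some alternatives called start regions, as given below. A region was called when its adjusted p was under 0.05 (edgeR's quasi-likelihood test, Benjamini-Hochberg over all tested regions). With 10 nM at 6 h, 6 regions were higher and 2 lower than vehicle (9.64% of the 83), compared with 25.1% of all tested regions, 16.7% higher and 8.42% lower. With 10 nM at 18 h, 5 were higher and 2 lower (8.43%), compared with 20.4% of all regions, 12.8% higher and 7.56% lower. Of the higher regions, 1 at each time, at CDKN1B, had passed the filter on low counts only through the 10 nM libraries. With 0.1 nM, 1 region was higher at 6 h (1.2%, against 1.19% of all regions, 0.949% higher and 0.241% lower), and 2 were higher at 18 h (2.41%, against 2.44%, 1.74% higher and 0.698% lower). No member was lower with 0.1 nM in edgeR or DESeq2. In this fit the shares at 0.1 nM were thus near those of all regions, and the shares at 10 nM were below them, a difference that was not tested.

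The doses were also compared with each other. At 6 h, 6 member regions were higher and 2 lower with 10 nM than with 0.1 nM (9.64%), compared with 20.4% of all regions, 15.1% higher and 5.25% lower. At 18 h, 2 were higher and 1 lower (3.61%), compared with 10.9%, 6.67% higher and 4.22% lower. Both doses were compared with the same vehicle libraries, so the 3 comparisons at each time are not independent of each other. The median log2 change over the members was -0.11 at 6 h and -0.10 at 18 h with 10 nM, against -0.05 and 0.01 over all regions. The sign of the member median depended on scaling: it was 0.20 and 0.34 with factors from the 5000 strongest regions, 0.16 and 0.07 with each library's percentage in those regions as a covariate, and 0.0074 and 0.04 with library totals. That percentage was 37 to 41.7 in the vehicle libraries at 6 h and 33.5 to 34.6 with 10 nM, without overlap. At 18 h the 2 groups overlapped, but the mean was again lower with 10 nM. Dose and covariate thus cannot be fully told apart. The counts depended on single settings and libraries. Without replicate 1 of 10 nM at 18 h, 13 regions rather than 7 were called for 10 nM at 18 h, and without both libraries that lay apart there were 19, of which 8 were higher and 11 lower. The same omission raised the count between doses at 18 h from 3 to 14. Counts under such alternatives are not set beside the share of all regions in the same setting. They do not show whether the members stay below it. The count between doses at 6 h was 5 rather than 8 without replicate 1 or replicate 3 of either dose. For 0.1 nM at 18 h it was 1 rather than 2 without replicate 1 or replicate 2 of vehicle or replicate 2 of 0.1 nM. With factors from the 5000 strongest regions, 7 members were higher and 0 lower at 6 h, and 10 were higher and 0 lower at 18 h, with 10 nM. Among all regions called for 10 nM, 66.5% were higher at 6 h and 62.9% at 18 h, and with factors from the 5000 strongest regions 84.8% and 84.7% were. In bulk chromatin, a change in the share of cells with an open region and a change in openness per cell cannot be told apart.

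**Figure D1:**
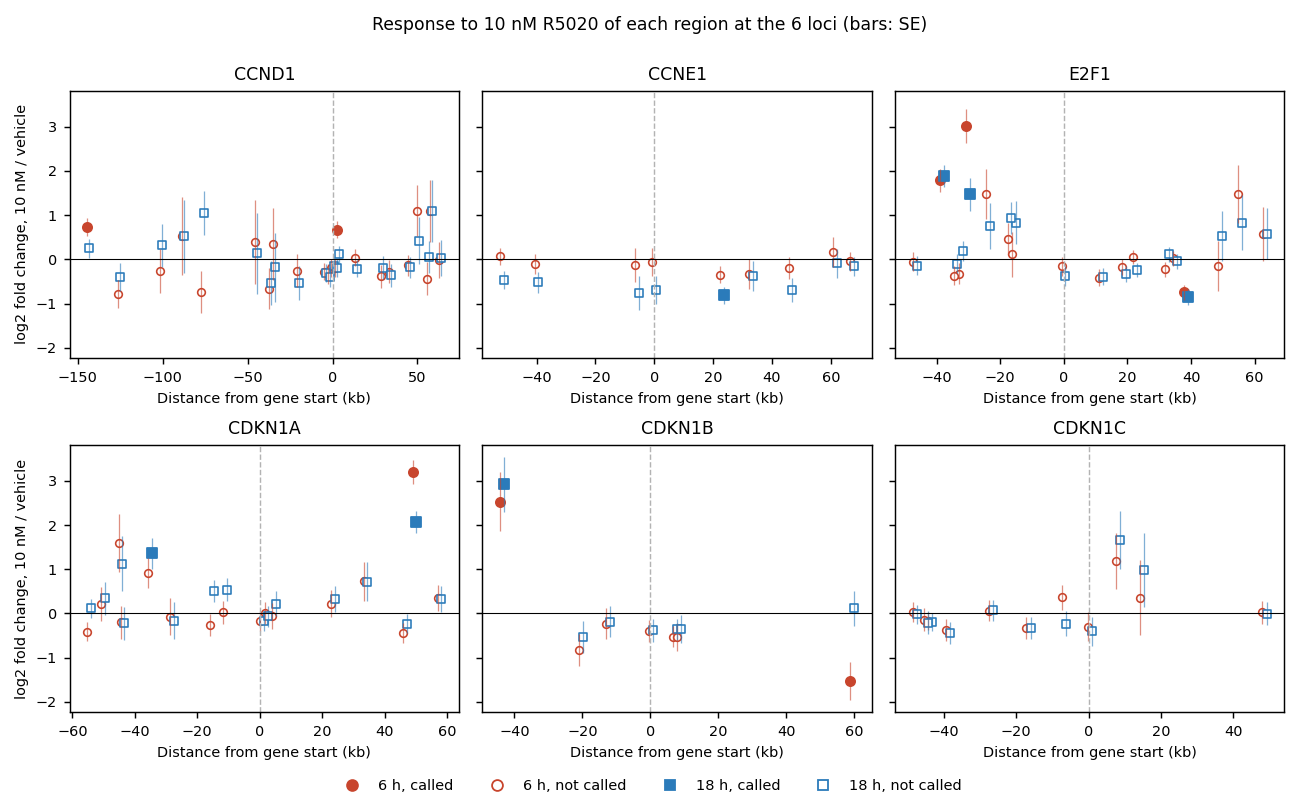
Log2 fold change of 10 nM R5020 over vehicle (y axis) for every region of the 6 windows, by distance of its centre from the gene start in kb along the direction of transcription (x axis). Circles are 6 h, squares 18 h, drawn slightly apart, filled where the adjusted p was under 0.05, and bars are standard errors. The called regions lie between 143.8 kb upstream (CCND1) and 59.4 kb downstream (CDKN1B) of the starts, and no filled symbol lies at a start.

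CCND1 encodes cyclin D1, the partner of CDK4 and CDK6. Of its 22 regions, 2 rose with 10 nM at 6 h (9.09%, against 25.1% of all tested regions called). At 18 h the report's own edgeR fit and DESeq2 called 0 with 10 nM (1 had an unadjusted p under 0.05). With 0.1 nM both called 0 at either time (1 unadjusted at each). Of all tested regions edgeR called 20.4% with 10 nM at 18 h, and 1.19% and 2.44% with 0.1 nM at 6 and 18 h. Without the 2 libraries that lay apart, a region 76.6 kb upstream was called higher with 10 nM at 18 h (1.49, adjusted p = 0.0264). Regions 2.3 kb upstream (-0.61, adjusted p = 0.0259) and 34.0 kb downstream (-0.73, adjusted p = 0.0178) were then called lower. The first of the 2 that rose at 6 h, chr11:69458958-69459457, lay 3.2 kb downstream of the start. It had 10.3 CPM in each vehicle library at 6 h, 17.6, 17.1 and 14.8 with 0.1 nM and 15.1, 17.5 and 16.7 with 10 nM. Both treated groups lay wholly above the vehicle libraries at 6 h. The log2 change was 0.67 (SE 0.19, adjusted p = 0.0125) with 10 nM and 0.68 (SE 0.19) with 0.1 nM, for which the adjusted p was 0.106. It was called with 0.1 nM with library totals (adjusted p = 0.0235), the replicate number as a block (0.0317) and the covariate (0.0072). After 18 h the vehicle libraries had 15.7, 13.9 and 11.7 CPM and overlapped both treated groups. A region 13.6 kb downstream, chosen after its values were seen, was called higher with 0.1 nM at 18 h in some alternatives. These were factors from the 5000 strongest regions (0.57, adjusted p = 0.0337) and the covariate (0.49, adjusted p = 0.00899).

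The second CCND1 region that rose, chr11:69311816-69312658, lay 143.8 kb upstream. Its vehicle libraries had 24.7, 21.2 and 17.4 CPM at 6 h, those with 0.1 nM 24.3, 29.0 and 19.2, and those with 10 nM 36.6, 35.4 and 33.0. The 10 nM libraries lay above all others at 6 h, and the log2 change was 0.73 (SE 0.21, adjusted p = 0.0131). Without replicate 3 of vehicle at 6 h it was 0.61, with an adjusted p of 0.0575. The log2 change at 18 h was 0.25 (SE 0.21, adjusted p = 0.439) and the groups overlapped. Another region, 58.3 kb downstream, was higher with 10 nM than with 0.1 nM at 6 h (log2 difference 2.15, SE 0.73, adjusted p = 0.0431). It was chosen after its values were seen and rested on 4 to 58 counts per library in the 2 groups compared, and leaving out any 1 of 5 of the 6 libraries compared took its adjusted p to between 0.0738 and 0.191. The covariate made the difference 1.08 (adjusted p = 0.194).

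CCNE1 encodes cyclin E1, the partner of CDK2. With 10 nM, 1 of its 9 regions fell at 18 h (11.1%, against 20.4% of all tested regions called). At 6 h edgeR, DESeq2 and unadjusted p-values under 0.05 gave 0, where edgeR called 25.1% of all tested regions. All 9 CCNE1 regions had a log2 change below 0 at 18 h (median -0.52, highest -0.09). This shared sign may depend on scaling. With factors from the 5000 strongest regions, 69 of the 83 members were above 0 at 18 h, against 36 in the report's own fit. How many of the 9 then stayed below 0 is not given here. The strongest of the 9, 32.9 kb downstream, was above 0 (0.37, adjusted p = 0.0455) when the fraction of each library in the 5000 strongest regions was added to the model. Without the 2 libraries that lay apart, that region was called lower (-0.89, adjusted p = 0.0258). The start (-1.19, adjusted p = 0.00249) and a region 40.1 kb upstream (-0.75, adjusted p = 0.0377) were then also called lower. The region that fell in the report's own fit, chr19:30325875-30326172, lay 23.0 kb downstream of the start. At 6 h it had 12.1, 13.5 and 11.3 CPM in vehicle, 18.7, 15.7 and 15.5 with 0.1 nM and 8.85, 10.4 and 9.78 with 10 nM. After 18 h it had 11.7, 11.6 and 10.6 in vehicle, 15.3, 17.7 and 10.4 with 0.1 nM and 7.46, 5.89 and 5.69 with 10 nM. Libraries given 10 nM were the lowest at both times, and the 0.1 nM libraries were the highest at 6 h, where the 3 groups did not overlap.

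Against vehicle, this CCNE1 region changed by -0.82 on the log2 scale with 10 nM at 18 h (SE 0.20, adjusted p = 0.00507) and by -0.35 at 6 h (SE 0.19, adjusted p = 0.207). The changes with 0.1 nM were 0.44 at 6 h and 0.36 at 18 h, with adjusted p of 0.48 and 0.517. The 2 doses therefore had opposite signs against vehicle, and the difference between doses was itself called, at -0.78 at 6 h (SE 0.19, adjusted p = 0.00528) and -1.18 at 18 h (SE 0.20, adjusted p = 0.000497). With scaling factors from the 5000 strongest regions, the change at 18 h against vehicle was -0.42 (adjusted p = 0.129), and the difference between doses at 6 h was -0.52 (adjusted p = 0.0512).

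E2F1 encodes a transcription factor that drives genes of S phase. Its window held 3 of the 8 regions called for 10 nM at 6 h and the same 3 at 18 h, 2 higher and 1 lower of 18. This was 16.7% at each time, against 25.1% and 20.4% of all tested regions. Without the 2 libraries that lay apart, regions 15.6 kb (1.28, adjusted p = 0.0363) and 17.1 kb upstream (1.25, adjusted p = 0.00667) were also called higher at 18 h. The start was then called lower (-0.55, adjusted p = 0.0479). The window also held the only member region called for 0.1 nM at both times in the report's own fit. That region, chr20:32312226-32312662, lay 38.4 kb upstream of the start. At 6 h it had 10.8, 7.96 and 11.1 CPM in vehicle, 35.9, 25.3 and 33.1 with 0.1 nM and 32.5, 31.5 and 38.4 with 10 nM. At 18 h it had 12.1, 8.18 and 10.0 in vehicle, 41.3, 22.7 and 24.3 with 0.1 nM and 47.7, 30.7 and 33.6 with 10 nM. Every treated library lay above every vehicle library, and the 2 doses overlapped at each time.

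The rise at this E2F1 region was 3.18-fold with 0.1 nM at 6 h (log2 change 1.67, SE 0.26, adjusted p = 0.00103) and 3.45-fold with 10 nM (1.79, SE 0.26, adjusted p = 2.87e-05). The rise at 18 h was 2.92-fold (1.55, SE 0.25, adjusted p = 0.0014) and 3.7-fold (1.89, SE 0.25, adjusted p = 2.15e-05). The difference between the doses was 0.12 on the log2 scale at 6 h (95% interval -0.39 to 0.62) and 0.34 at 18 h (-0.17 to 0.85), with adjusted p of 0.794 and 0.496. A difference between doses of up to about 0.85 in favour of 10 nM was thus not excluded at 18 h, and with the covariate the difference at 18 h was 0.59 and was called (adjusted p = 0.0226). The call held in all 15 alternatives for each of the 4 comparisons with vehicle.

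The second E2F1 region that rose, chr20:32304082-32304261, lay 30.2 kb upstream and had a different pattern over dose. At 6 h it had 0.525, 0.81 and 1.78 CPM in vehicle, 1.09, 2.33 and 1.61 with 0.1 nM and 8.1, 7.12 and 9.83 with 10 nM. At 18 h the values were 0.862, 2.16 and 1.94, then 2.9, 2.9 and 4.57, then 4.78, 4.5 and 4.29. The 10 nM libraries at 6 h lay far above both other groups, whereas at 18 h the 2 doses overlapped and both lay above vehicle. With 10 nM it rose 8.07-fold at 6 h (log2 change 3.01, SE 0.39, adjusted p = 9.19e-06) and 2.76-fold at 18 h (1.47, SE 0.36, adjusted p = 0.00625). The dose difference was called at 6 h (2.35, SE 0.36, adjusted p = 7.93e-05) and was 0.41 at 18 h (95% interval -0.32 to 1.15). Without replicate 1 of vehicle at 18 h, the adjusted p of the change at 18 h was 0.0508.

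The E2F1 region that fell, chr20:32234926-32236237, lay 38.4 kb downstream of the start. At 6 h it had 40.9, 33.0 and 32.0 CPM in vehicle, 26.5, 27.0 and 31.9 with 0.1 nM and 18.6, 22.7 and 21.8 with 10 nM. At 18 h it had 26.9, 33.9 and 29.6, then 22.4, 23.0 and 21.2, then 16.4, 17.3 and 16.3. The 3 groups did not overlap at either time and followed the dose downwards. The log2 change with 10 nM was -0.74 at 6 h (SE 0.17, adjusted p = 0.0027) and -0.85 at 18 h (SE 0.17, adjusted p = 0.00117), and with 0.1 nM it was -0.31 and -0.44, with adjusted p of 0.68 and 0.255. With scaling factors from the 5000 strongest regions, the changes with 10 nM were -0.41 at both times, with adjusted p of 0.199 and 0.206.

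CDKN1A encodes p21. The largest rise with 10 nM at 6 h among the members lay in its window, at chr6:36695351-36695876, 49.6 kb downstream of the start. At 6 h this region had 1.79, 1.58 and 2.51 CPM in vehicle, 3.34, 4.47 and 2.68 with 0.1 nM and 18.4, 18.1 and 16.8 with 10 nM. At 18 h it had 2.63, 1.96 and 3.36, then 4.76, 6.91 and 5.54, then 12.8, 11 and 9.14. The groups followed the dose upwards without overlap at both times, and the 10 nM libraries were lower at 18 h than at 6 h.

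With 10 nM the rise at this CDKN1A region was 9.18-fold at 6 h (log2 change 3.20, SE 0.26, adjusted p = 6.07e-08) and 4.17-fold at 18 h (2.06, SE 0.25, adjusted p = 5.54e-06), and it was called in all 15 alternatives at each time. With 0.1 nM it was 1.79-fold at 6 h (0.84, SE 0.26, adjusted p = 0.17) and 2.16-fold at 18 h (1.11, SE 0.25, adjusted p = 0.0169). The 18 h call at 0.1 nM held in 11 of 15 alternatives. Its adjusted p was 0.0942 and 0.128 without replicate 1 or 2 of vehicle at 18 h, 0.102 without replicate 2 of 0.1 nM, and 0.0539 with factors from the 5000 strongest regions. The dose difference was 2.36 at 6 h (SE 0.24, adjusted p = 1.07e-06) and 0.95 at 18 h (SE 0.24, adjusted p = 0.0111). The difference at 18 h lost its call without replicate 1 of 0.1 nM (0.83, adjusted p = 0.0804) or replicate 1 of 10 nM (0.82, adjusted p = 0.0531), and without both libraries that lay apart (0.77, adjusted p = 0.0614).

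Another CDKN1A region, chr6:36610464-36611255, 35.1 kb upstream, rose with 10 nM at 18 h. It had 2.37, 3.65 and 3.48 CPM in vehicle at 18 h, 3.58, 4.22 and 6.22 with 0.1 nM and 6.88, 9.49 and 8.02 with 10 nM. Libraries given 10 nM lay above all others, and the log2 change was 1.36 (SE 0.34, adjusted p = 0.00683). Without replicate 1 of vehicle at 18 h the adjusted p was 0.0517. At 6 h the 10 nM libraries had 5.86, 5.79 and 5.74 CPM against 2.31, 3.24 and 3.56 in vehicle, a log2 change of 0.91 with an adjusted p of 0.0573. Several alternatives called this rise at 6 h: RLE factors (adjusted p = 0.0492), no filter (0.0465), the replicate block (0.014) and only the groups compared (0.004). So did DESeq2 (0.0406) and the omission of the 2 libraries that lay apart (0.0359). Library totals, factors from the 5000 strongest regions and the covariate did not. This region was also higher with 10 nM than with 0.1 nM at 6 h (log2 difference 0.98, SE 0.34, adjusted p = 0.0453), as was a region 44.6 kb upstream that was chosen after its values were seen (2.00, SE 0.65, adjusted p = 0.0338). Both lost this call without replicate 1 of 0.1 nM at 6 h, with adjusted p of 0.227 and 0.161, and without replicate 3, with 0.201 and 0.154. They lost it also without replicate 1 or replicate 3 of 10 nM, and the first without replicate 2 of 10 nM. With the covariate the differences were 0.55 and 1.10, with adjusted p of 0.193 and 0.154. Of the other 13 CDKN1A regions, edgeR's and DESeq2's fits of all 18 libraries called 0 in any comparison. These 13 are those left once the regions called by edgeR were set aside, so its 0 is not a result about them. Some alternatives called regions among the 13. With factors from the 5000 strongest regions 2 were higher with 10 nM at 18 h. With the covariate 2 were higher with 10 nM than in vehicle at 6 h and 1 at 18 h, and 1 was lower than with 0.1 nM at 6 h.

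CDKN1B encodes p27. Of its 7 regions, 1 rose and 1 fell with 10 nM at 6 h (28.6%, against 25.1% of all tested regions), and both were weak. Without the 2 libraries that lay apart, a region 12.4 kb upstream (-0.92, adjusted p = 0.0257) and the start (-0.73, adjusted p = 0.0238) were called lower with 10 nM at 18 h. The region that rose, chr12:12826234-12826476, 43.6 kb upstream, was at percentile 1.73 of all tested regions in the vehicle cells. At 6 h it held 0, 6 and 5 counts in vehicle, 8, 2 and 6 with 0.1 nM and 28, 38 and 31 with 10 nM. After 18 h it held 5, 10 and 3 counts in vehicle, 5, 4 and 6 with 0.1 nM and 97, 40 and 12 with 10 nM. In CPM the 10 nM libraries (0.907 to 1.69 at 6 h and 1.12 to 3.27 at 18 h) lay above every other library of their time. The log2 change with 10 nM was 2.52 at 6 h (SE 0.67, adjusted p = 0.00773) and 2.92 at 18 h (SE 0.62, adjusted p = 0.00184), both called in all 15 alternatives. It was the only 1 of the 83 members that passed the filter on low counts through the 10 nM libraries alone, so passing the filter says nothing of its level elsewhere. It entered the report's own fit only because it was high with 10 nM. Its p-values and calls there, including those between doses, are therefore not independent support for the rise. With 0.1 nM the changes were -0.14 (95% interval -1.69 to 1.41) and 0.06 (-1.44 to 1.56), and the dose difference was called at 6 h (2.67, SE 0.63, adjusted p = 0.00416) and at 18 h (2.86, SE 0.64, adjusted p = 0.00526).

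The CDKN1B region that fell, chr12:12929304-12929547, 59.4 kb downstream, had 1.16, 0.663 and 0.81 CPM in vehicle at 6 h, 0.916, 0.954 and 0.88 with 0.1 nM and 0.187, 0.356 and 0.322 with 10 nM. Libraries given 10 nM lay below all others at 6 h on 4 to 11 counts each. The log2 change was -1.53 (SE 0.43, adjusted p = 0.0127). The call was lost without replicate 1 of vehicle (adjusted p = 0.0654) or replicate 1 of 10 nM (0.0715) and with factors from the 5000 strongest regions (0.0717). After 18 h the 0.1 nM libraries were the highest (1.97, 1.8 and 1.46 CPM), and 10 nM (1.05, 0.818 and 1.12) overlapped vehicle (1.08, 0.566 and 1.12).

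**Figure D2:**
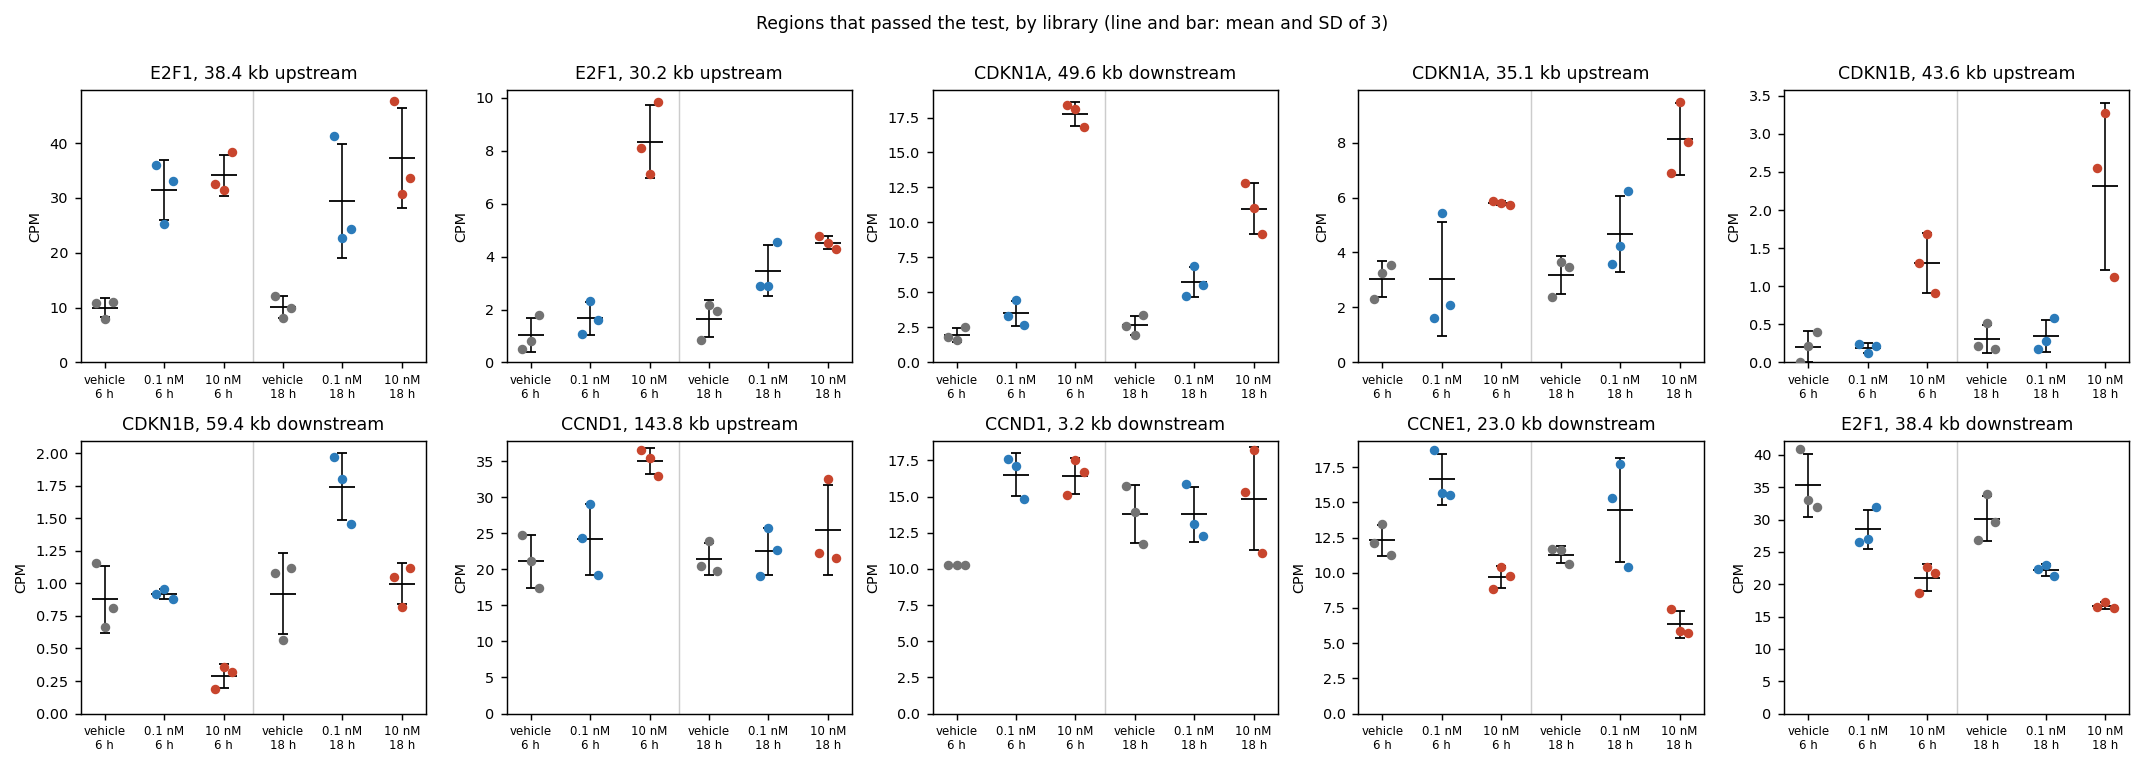
Accessibility in CPM (y axes, each from 0) of the 10 regions called for either dose against vehicle, in every library of the 6 groups (x axes). Points are libraries, and lines and bars are the mean and SD of 3. The E2F1 region 38.4 kb upstream is at a like level with 0.1 and 10 nM, the CDKN1A region 49.6 kb downstream rises stepwise with dose, and the CDKN1B region 43.6 kb upstream is raised with 10 nM.

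CDKN1C encodes p57 and is an imprinted gene. None of its 11 regions was called in any of the 9 comparisons by edgeR or DESeq2 as fitted to all 18 libraries. In edgeR, 25.1% and 20.4% of all tested regions were called for 10 nM at 6 and 18 h. For 0.1 nM these shares were 1.19% and 2.44%, between doses 20.4% and 10.9%, and over time at most 0.00151%. Alternatives called some of the 11. A region 38.8 kb upstream was lower with 10 nM than with 0.1 nM at 6 h with library totals (-0.54, adjusted p = 0.0484), with the replicate block (-0.62, adjusted p = 0.0132) and with only the groups compared (-0.59, adjusted p = 0.0139). With factors from the 5000 strongest regions, a region 47.9 kb upstream was higher with 10 nM at 6 h (0.38, adjusted p = 0.0493) and 18 h (0.40, adjusted p = 0.0429). Without the 2 libraries that lay apart, both were lower with 10 nM than with 0.1 nM at 18 h (-0.84, adjusted p = 0.04, and -0.79, adjusted p = 0.0184). A region 16.6 kb upstream was then lower with 10 nM than in vehicle at 18 h (-0.61, adjusted p = 0.0385). All of these regions were chosen after their values were seen. At an unadjusted p under 0.05 there were 0 with 10 nM at 6 h, 1 with 10 nM at 18 h, 0 and 1 with 0.1 nM, and 2 and 0 between doses. The strongest region, chr11:2933379-2934641, 27.0 kb upstream, had 56.7, 67.6 and 52.1 CPM in vehicle at 6 h and 62.5, 69.0 and 52.4 with 10 nM. After 18 h the values were 72.7, 69.5 and 53.3 in vehicle and 86.4, 72.2 and 46.1 with 10 nM. The groups overlapped at both times, although at 18 h it was called higher with factors from the 5000 strongest regions (0.47, adjusted p = 0.029) and with the covariate (0.44, adjusted p = 0.0403). With the covariate it was called higher at 6 h too (0.48, adjusted p = 0.0285). The largest change with 10 nM, at a region chosen after its values were seen (chr11:2898828-2898975, 8.1 kb downstream), was 1.18 at 6 h (SE 0.63, adjusted p = 0.188) and 1.66 at 18 h (SE 0.65, adjusted p = 0.0806), on 2 to 47 counts per library.

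The 6 start regions were called in none of the 9 comparisons in the report's own edgeR fit or by DESeq2. Of all tested regions edgeR called 25.1% and 20.4% with 10 nM at 6 and 18 h and 1.19% and 2.44% with 0.1 nM. It called 20.4% and 10.9% between doses and at most 0.00151% over time. In edgeR 1 start region, that of CCNE1 with 10 nM at 18 h, had an unadjusted p under 0.05. At CCND1 the start region (chr11:69455731-69456272) had 24.5, 21.7 and 22.7 CPM in vehicle at 6 h and 22.7, 18.5 and 18.7 with 10 nM. At E2F1 (chr20:32273592-32274668) the values were 70.0, 76.3 and 60.8 against 63.1, 59.8 and 62.3, and at CDKN1A (chr6:36646233-36647281) they were 41.8, 46.6 and 41.4 against 35.5, 43.0 and 37.3. These 3 pairs of groups overlapped. At CDKN1B (chr12:12869430-12870799) the 10 nM libraries (18.1, 17.6 and 17.1) lay below the vehicle libraries (23.5, 24.1 and 21.9), with a log2 change of -0.40 (SE 0.26, adjusted p = 0.286). At CDKN1C (chr11:2905531-2907522) vehicle had 50.8, 47.4 and 36.4 and 10 nM had 42.5, 33.7 and 33.3, which overlapped.

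With 10 nM the log2 changes of the 6 start regions ran from -0.40 to -0.06 at 6 h (median -0.18) and from -0.70 to -0.15 at 18 h (median -0.38). In this fit the 95% intervals at 6 h reached a rise of 0.59 at CCNE1 and a fall of 0.98 at CDKN1C. They hold for 1 scaling and cannot exclude larger changes under another. The sign of these changes depended on scaling. With factors from the 5000 strongest regions 5 of the 6 were above 0 at 6 h and 3 at 18 h, and with each library's percentage in those regions as a covariate 6 and 5 were. That percentage was itself lower with 10 nM, so dose and covariate cannot be fully told apart. With library totals alone, 1 was above 0 at 6 h. With the covariate, 2 start regions were called higher at 6 h, CCNE1 (0.72, adjusted p = 0.00258) and CDKN1C (0.60, adjusted p = 0.0081). With 0.1 nM the changes ran on both sides of 0 at both times.

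The CCNE1 start region (chr19:30302319-30303448) had 73.0, 56.1 and 44.9 CPM in vehicle at 18 h, 69.6, 46.1 and 31.2 with 0.1 nM and 55.1, 31.9 and 19.2 with 10 nM. All 3 groups overlapped, but within each replicate number the value fell from vehicle to 0.1 nM to 10 nM. The same libraries had 40.0%, 38.5% and 36.0% of their counts in the 5000 strongest regions in vehicle, 39.6%, 36.6% and 33.0% with 0.1 nM and 37.4%, 32.7% and 30.7% with 10 nM, so the library with the smaller share had the lower CPM within each group. Adding this percentage to the model gave -0.05 (adjusted p = 0.847) in place of -0.70 (SE 0.32, adjusted p = 0.127). A replicate block gave -0.76 (adjusted p = 0.0174), and without replicate 1 of 10 nM the change was -1.18 (adjusted p = 0.00938). Without both libraries that lay apart, the start regions of CCNE1 (-1.19, adjusted p = 0.00249), CDKN1B (-0.73, adjusted p = 0.0238) and E2F1 (-0.55, adjusted p = 0.0479) were called lower with 10 nM at 18 h.

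**Figure D3:**
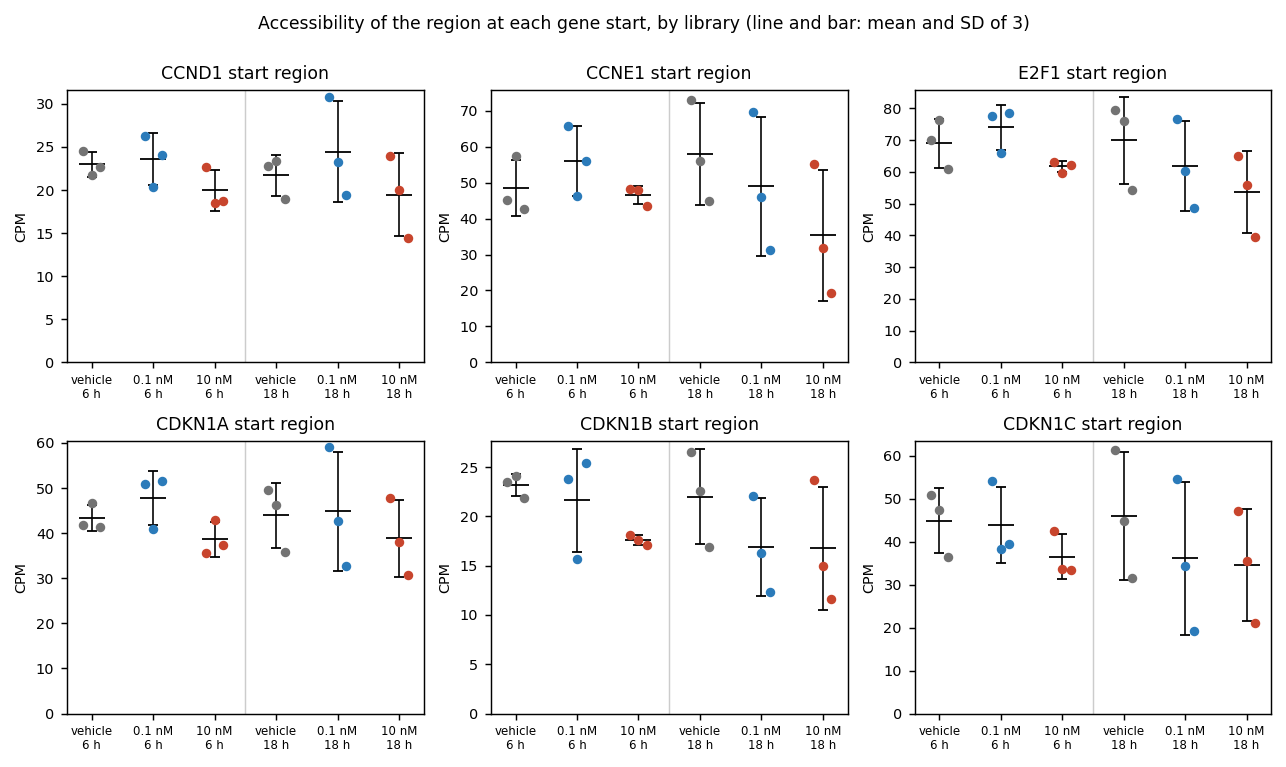
Accessibility in CPM (y axes, each from 0) of the region at each gene start in every library of the 6 groups (x axes). Points are libraries, and lines and bars are the mean and SD of 3. The libraries of 1 group at 18 h spread widely, from 19.2 to 55.1 CPM with 10 nM at CCNE1, where the 3 groups overlap.

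Accessibility was also summed over each window. The CDKN1A sum was 95.38 CPM ± 6.18 (SD, n = 3) in vehicle and 109.2 ± 7.49 with 10 nM at 6 h, and 99.81 ± 6.86 and 114.8 ± 12.7 at 18 h. On the log2 scale its ratio was 0.20 at both times, and 0.53 and 0.63 with factors from the 5000 strongest regions. The CDKN1B sum was 66.28 ± 11.9 in vehicle and 48.04 ± 1.87 with 10 nM at 6 h. At E2F1, where 2 regions rose and 1 fell, the sums were 559.3 ± 49.7 and 521.1 ± 31.8 at 6 h. The sums were not tested, and their direction at CCND1, CCNE1, E2F1 and CDKN1C turned at 6 h with factors from the 5000 strongest regions.

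No member region was called between vehicle at 18 h and vehicle at 6 h, where 0% of all tested regions were called, nor in its 0.1 nM response between the times (0% of all regions). In its 10 nM response between 6 and 18 h, 0.00151% of all regions and no member were called. DESeq2 also called 0 members in each of these 3 comparisons, and gave no adjusted p for 19 of the 83 in the 10 nM response. At an unadjusted p under 0.05 edgeR gave 2, 2 and 6 members and DESeq2 2, 2 and 4, in the order vehicle, 0.1 nM and 10 nM. The 10 nM response at 18 h minus that at 6 h was -1.14 on the log2 scale at the CDKN1A region 49.6 kb downstream (95% interval -1.87 to -0.41, adjusted p = 0.471) and -1.55 at the E2F1 region 30.2 kb upstream (-2.65 to -0.44, adjusted p = 0.597). Neither passed the threshold. At the E2F1 region 38.4 kb upstream the response differed between times by 0.10 (95% interval -0.63 to 0.83).

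The wider G1 machinery was represented by 18 other genes, with 183 regions in or within 50 kb of them, and 16 of the genes had a region at the start itself. With 10 nM, 29 of these regions were higher and 16 lower at 6 h (24.6%, against 25.1% of all tested regions), and 19 were higher and 10 lower at 18 h (15.8%, against 20.4%). With 0.1 nM, 1 was higher at 6 h (0.546%, against 1.19%) and 4 at 18 h (2.19%, against 2.44%), and edgeR called 0 lower, whereas DESeq2 called 1 lower at 6 h (at 6 and 18 h, unadjusted p-values fell under 0.05 at 10 and 20 of them). The single regions given next were chosen after their values were seen. Near E2F3, a member of the same activator family as E2F1, chr6:20455720-20456171 rose by 3.77 on the log2 scale at 6 h (SE 0.28, adjusted p = 3.3e-08) and 3.38 at 18 h (SE 0.27, adjusted p = 9.59e-08) with 10 nM. At CDK6, the kinase partner of cyclin D1, 6 of 17 regions rose and 1 fell at 6 h, and the one that fell, chr7:92312314-92312865, changed by -2.25 (SE 0.35, adjusted p = 6.98e-05). At CDK2, the partner of cyclin E1, 4 of 15 regions rose and 4 fell at 6 h. Of all tested regions, 16.7% rose and 8.42% fell at 6 h. At CCND3, which encodes cyclin D3, chr6:42013219-42014027 rose with 0.1 nM by 1.05 at 6 h (SE 0.26, adjusted p = 0.0473) and 1.06 at 18 h (SE 0.26, adjusted p = 0.028), and with 10 nM it changed by -1.11 at 6 h (SE 0.26, adjusted p = 0.00349). With RLE factors or with no filter, 0 of the 183 regions were called for 0.1 nM at 6 h.

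At the starts of these genes, 3 of 16 regions fell with 10 nM at 6 h, those of CCND3 (-0.75, adjusted p = 0.0166), CDK2 (-0.59, adjusted p = 0.0386) and RBL2 (-0.74, adjusted p = 0.0291), which encodes the pocket protein p130. At 18 h 2 fell, CCND3 (-0.78, adjusted p = 0.0163) and RBL2 (-0.69, adjusted p = 0.0498). Of all tested regions, 8.42% and 7.56% fell at the 2 times. With RLE factors or no filter 2 starts were called lower at 6 h and 1 at 18 h, where DESeq2 and the fit of only the groups compared also called 1. The log2 change was below 0 at 15 of 16 starts at 6 h and 16 of 16 at 18 h, but with factors from the 5000 strongest regions at 12 and 9, where 1 and 0 were called lower. With the share as a covariate, 5 and 7 were below 0, 0 were called lower, and 4 and 1 were called higher. Without the 2 libraries that lay apart, 11 of the 16 starts were called lower at 18 h, and of all 183 regions 17 were higher and 44 lower. The share of all tested regions under that omission is not given here.

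**Figure D4:**
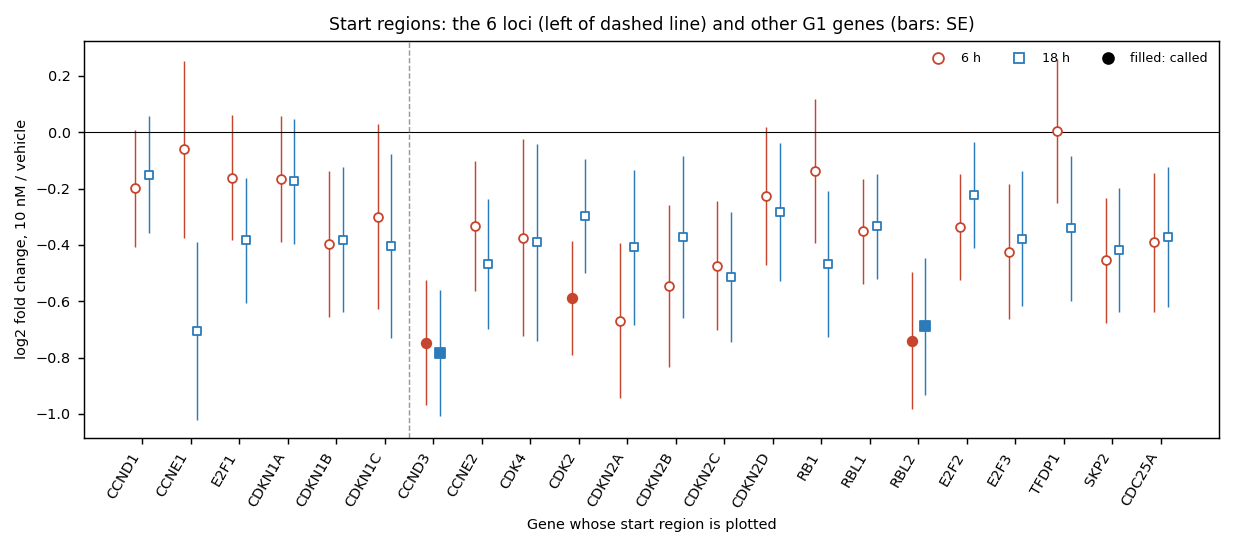
Log2 fold change of 10 nM R5020 over vehicle (y axis) at the start regions of the 6 genes, left of the dashed line, and of 16 other G1 genes (x axis). Circles are 6 h and squares 18 h, filled where the adjusted p was under 0.05, and bars are standard errors. The filled symbols are CCND3 and RBL2 at both times and CDK2 at 6 h, all below 0, although with factors from the 5000 strongest regions 4 of the 16 other genes lay above 0 at 6 h and 7 at 18 h.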

How the data were processed

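Omni-ATAC-seq was performed on 18 libraries of T47D cells, 3 per group. The authors deposited 1 table of whole-number counts per region and library, with hg19 coordinates. BWA and MACS2 are listed with hg19, per the submitters' processing notes, with no version or setting. Filters applied before deposit are not given in these sources. Library totals ranged from 8756311 to 39984217 counts, so weak regions rest on few counts.

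The 83 member regions and all gene lists were chosen with earlier results of these data known. All 132604 regions entered 1 fit in R 4.3.3 with edgeR 4.0.16 (quasi-likelihood F test, trimmed-mean factors, a mean per group, 12 residual degrees of freedom). The filterByExpr step, with a minimum count of 10 and a minimum total of 15, left out 300 regions and no member. Benjamini-Hochberg adjustment ran over all 132304 tested regions, and an adjusted p under 0.05 was called. The scripts were checked on simulated counts. DESeq2 1.42.0, other scaling factors, no filter, only the groups compared, the replicate number as a block, and leaving out each library were alternatives. A covariate (each library's percentage in the 5000 strongest regions) and the omission of 2 libraries were chosen after seeing the data. The covariate was lower with 10 nM than in vehicle, so results with it do not separate dose from covariate.

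Named regions were the start region of each gene (within 1.5 kb), the strongest region in vehicle, up to 3 rising and 3 falling regions called for 10 nM at 6 h, up to 2 each way at 18 h, and those called for 0.1 nM or for a change of response over time. Regions under a mean log2 CPM of -1 were not named for 10 nM. Libraries with the same replicate number were checked for shared deviations from their group means. Every correlation exceeded 0.1 only for 10 nM against 0.1 nM at 18 h (0.60, 0.19 and 0.45) and for vehicle at both times (0.32, 0.12 and 0.45). The labels do not say that a number marks a shared batch. No 2 libraries of a group agreed within counting noise (chi-square per degree of freedom 3.34 to 28.2).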

Additional observations from a re-analysis of the deposited data

How the results depend on the processing

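No member call given in the report turned direction in these alternatives, and the calls lost when a library was left out are given beside each result. The strongest CCNE1 region, not called in the report's own fit, was called lower with 10 nM at 18 h without the 2 libraries that lay apart (-0.89, adjusted p = 0.0258) and higher with the covariate (0.37, adjusted p = 0.0455). Other settings took the adjusted p of the dose difference at 18 h at the CDKN1A region 49.6 kb downstream to 0.0501 (factors from the 5000 strongest regions) and 0.0662 (only the groups compared), and the covariate gave 0.0524 at the CDKN1B region that fell and 0.05 at the CDKN1A region 35.1 kb upstream at 18 h. The dose differences at 6 h at the CCND1 region 58.3 kb downstream and the CDKN1A regions 44.6 and 35.1 kb upstream lost their calls with library totals (adjusted p of 0.0759, 0.0608 and 0.0875), factors from the 5000 strongest regions (0.114, 0.093 and 0.142) and the covariate, and the last also with only the groups compared (0.0821). The cause of the changes below was not tested. With library totals only or with the replicate number as a block, 2 member regions rather than 1 were called for 0.1 nM at 6 h. With factors from the 5000 strongest regions, 4 rather than 8 were called between doses at 6 h, and 4 rather than 2 for 0.1 nM at 18 h. With only the groups compared, 14 rather than 8 were called for 10 nM at 6 h. Without the 2 libraries that lay apart, 19 rather than 7 were called for 10 nM at 18 h and 14 rather than 3 between doses at 18 h. With each library's percentage in the 5000 strongest regions as a covariate, the counts at 6 h were 22 for 10 nM, 3 for 0.1 nM and 16 between doses, and at 18 h they were 14, 6 and 10. Leaving out each library in turn gave 7 to 11 for 10 nM, 1 for 0.1 nM and 5 to 11 between doses at 6 h, and 5 to 13, 1 to 2 and 2 to 4 at 18 h. The shares of all regions under these settings are not given here, so the member counts cannot be read against them. The replicate block kept all calls and added 1 between doses at 18 h (3 to 4), and the vehicle comparison over time stayed at 0. In the other comparisons, where not every correlation exceeded 0.1, the block gave 12 for 10 nM at 6 h and 10 at 18 h.

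Factors from the 5000 strongest regions moved the median log2 change of all regions with 10 nM to 0.26 (6 h) and 0.47 (18 h) and with 0.1 nM to 0.22 (18 h), and library totals moved it to 0.17 with 10 nM (18 h). The share of higher calls among all regions rose from 79.7% to 90.6% for 0.1 nM at 6 h, from 71.4% to 87.7% at 18 h, and between doses from 74.2% to 88.5% at 6 h and from 61.2% to 75.9% at 18 h. The log2 ratio of summed accessibility for 10 nM at 6 h was then 0.29 at CCND1 (0.082 with library totals), 0.13 at CCNE1, 0.23 at E2F1, 0.53 at CDKN1A, -0.12 at CDKN1B and 0.22 at CDKN1C, and at 18 h it was 0.27 at CCND1, 0.32 at E2F1 and 0.63 at CDKN1A.

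Changes at start regions and at the strongest region of each locus, none called in the report's own fit, turned sign as follows, all for 10 nM against vehicle on the log2 scale. With library totals at 6 h the CCNE1 start was 0.062 and the E2F1 region 46.9 kb upstream 0.076. With factors from the 5000 strongest regions at 6 h the starts of CCND1, CCNE1, E2F1, CDKN1A and CDKN1C were 0.13, 0.26, 0.17, 0.15 and 0.048, and the strongest regions of CCND1, CCNE1 and E2F1 were 0.051, 0.015 and 0.28. At 18 h the starts of CCND1, E2F1 and CDKN1A were 0.25, 0.039 and 0.24, and the strongest regions of CCND1, E2F1 and CDKN1B were 0.027, 0.27 and 0.037. With the covariate at 6 h the starts of CCND1, CCNE1, E2F1, CDKN1A, CDKN1B and CDKN1C were 0.24, 0.72, 0.29, 0.28, 0.24 and 0.60, and the strongest regions of CCND1, CCNE1, E2F1 and CDKN1B were 0.36, 0.60, 0.33 and 0.38, of which the first 3 were called (adjusted p of 0.0464, 0.00209 and 0.02), as were the starts of CCNE1 and CDKN1C. At 18 h the starts of CCND1, E2F1, CDKN1A, CDKN1B and CDKN1C were 0.22, 0.021, 0.23, 0.16 and 0.39, and the strongest regions of CCND1, CCNE1, E2F1 and CDKN1B were 0.19, 0.37, 0.18 and 0.41. Without the 2 libraries that lay apart the strongest CDKN1C region was -0.14 at 18 h. Leaving out single libraries gave -0.15 to 0.11 at the CCNE1 start, -0.11 to 0.068 at the strongest E2F1 region and -0.022 to 0.20 at the strongest CDKN1C region at 6 h, and at 18 h -0.34 to 0.039 at the CCND1 start and -0.14 to 0.30 at the strongest CDKN1C region.

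Depth limits the weakest regions. Both CDKN1B regions that were called and the uncalled CDKN1C region 8.1 kb downstream rest on 97 counts or fewer per library. Regions between called peaks, and hg19 exons and introns, were not analysed here.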
